A study of Homo sapiens with 16 samples.

Results

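Gene expression in MCF10HER2 cells changed abruptly between 33 h and 36 h of exposure to CP724,714, an inhibitor of the HER2 kinase. Arrays of 36, 39, 42 and 45 h (4) were set against arrays of 24, 27, 30 and 33 h (4), which together are 8 of the 16 arrays of the series. MCF10HER2 is a line made from MCF10A, a nontransformed human breast epithelial line, by stable over expression of HER2, the receptor tyrosine kinase encoded by ERBB2. All 8 cultures grew in serum-free medium with EGF and hydrocortisone and without insulin, and had received CP724,714 at 1 µM with renewed medium at 0 h. For the question of whether a change had begun earlier, the treated arrays of 12, 15, 18 and 21 h (4) and of 3, 6 and 9 h (3) and the only untreated array, that of 0 h, were used as well. Each time point has 1 array from 1 culture, so the arrays of a group stand for successive times and not for repeats of a condition, and the spread within a group includes any drift over its 9 h. The untreated culture of 0 h has no later counterpart among the arrays analysed here, nor is there a vehicle control, so the time since plating and the time in inhibitor cannot be told apart.

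HER2 pairs with other receptors of the ERBB family and signals through the MAPK cascade and through PI3K and AKT. Cells that lose this drive commonly stop in G1, where RB family proteins hold E2F factors on the promoters of replication genes. With low AKT activity, FOXO factors enter the nucleus and transcription of their targets rises, while glycolysis, lipid synthesis and ribosome production usually recede.

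Of the 20589 probes, 11061 were detected on 4 or more of the 8 arrays and were tested, and they represent 10501 genes. A probe counts as detected where the deposited p-value, which ranks it among the negative control probes of its array, lies under 0.05. Values are normalized log2 signals, so a difference of 1 is a doubling. Between 10786 and 11436 probes were detected on each of these arrays. The median intensity of undetected probes was 164 to 174 on the arrays of 24 to 45 h and 136 to 149 on those of 0 to 21 h, so the step at 36 h lay within arrays of like background. The labels name no plating, extraction or chip set, and a set of cultures or arrays that ended at 33 h cannot be told apart from time. The 2 ERBB2 probes were detected on 1 and 3 of the 8 arrays and were not tested, so the over expression of HER2 was not checked by them. Of 12 mammary epithelial markers, 10 were tested and were detected on all 8 arrays, and their summed linear signal was 97063 to 108270 at 24-33 h and 108249 to 114219 at 36-45 h. KRT17 and CLDN1 of these rose and KRT5, EPCAM and KRT18 fell, and KRT14 and LAMB3 did not pass the detection filter. Of secretory luminal markers 7 of 11 were tested (3 rose, 1 fell; sums of 34095 to 38353 and 36941 to 41345), and ESR1, PGR, CSN2 and LALBA did not pass the filter. Of fibroblast and mesenchymal markers 7 of 14 were tested (1 rose, 1 fell; 6790 to 7690 and 7228 to 7850). Leukocyte markers (2 of 10 tested, 1 fell; 1508 to 1728 and 1272 to 1453), endothelial markers (4 of 8, 2 fell; 465 to 515 and 353 to 433) and adipocyte markers (2 of 6, 1 fell; 558 to 616 and 434 to 538) were low in both groups. Among the defining genes of those other cell types, PTPRC, CD3E, COL1A1, COL3A1, PDGFRB, CDH5, VWF and ADIPOQ did not pass the filter.

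At an adjusted p under 0.05, 3889 of the 11061 probes differed between 36-45 h and 24-33 h (35.2%), of which 1976 were higher (17.9%) and 1913 lower (17.3%). Most of these differences were small. The median probe that rose did so by 0.38 (1.30-fold) and the median probe that fell changed by -0.41 (1.32-fold), with a median SE over all tested probes of 0.10. A difference of 0.5 or more was reached by 1084 of the called probes (443 higher, 641 lower) and a difference of 1 or more by 150 (56 higher, 94 lower), which represent 55 genes that rose and 85 that fell. All 4 late arrays lay above all 4 earlier ones for 1833 probes (16.6%) and below them for 1822 (16.5%). The share that was higher depended on the scaling: when arrays were scaled to 1 median and not quantile normalized, the median of all probes moved from 0.01 to -0.04, and 33.8% of the called probes were higher and not 50.8%.

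Successive arrays showed where the change took place. The root mean square (RMS) difference over the tested probes was 0.27, 0.22 and 0.18 between neighbouring arrays from 24 to 33 h. It was 0.33 from 33 to 36 h and then 0.21, 0.21 and 0.20 up to 45 h. From 0 to 12 h the same measure had been 0.40 to 0.51, so the step at 36 h was smaller than the changes that followed the addition of the inhibitor and the fresh medium. The 9 h and 18 h arrays were dim, with upper quartile intensities of 397 and 418 against 553 to 627 on the other arrays up to 21 h. The 9 h array enters the differences from 6 to 9 h and from 9 to 12 h. Those from 0 to 3 h and from 3 to 6 h were 0.47 each. Pearson correlations across probes were 0.993 to 0.997 within 24-33 h, 0.995 to 0.996 within 36-45 h and 0.982 to 0.989 between the groups; these are descriptions over probes of the same arrays.

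**Figure D1:**
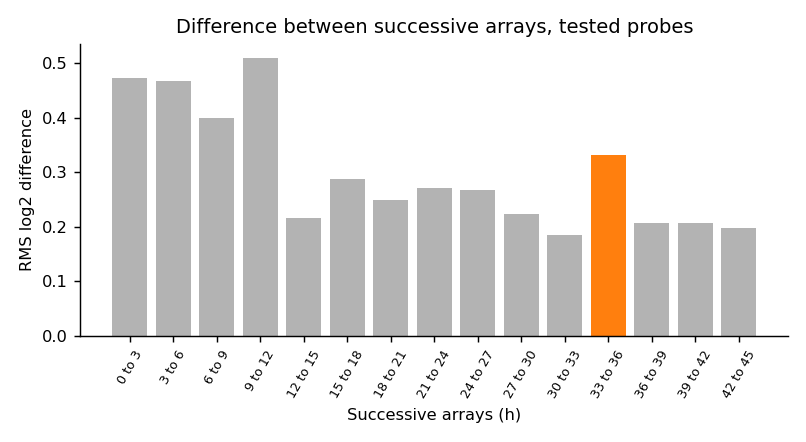
Bars show the RMS log2 difference over 11061 tested probes between each array and the next, against the pair of times in hours. The bar from 33 to 36 h (0.33, orange) stands above its neighbours, which lie between 0.18 and 0.27 from 21 h on, and below the bars of the first 12 h.

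Whether a change had begun before the step was read from the drift within 24-33 h. A straight line in hours within each group gave a change over 24-33 h for 53 probes (0.479%; 47 upward or 0.425%, 6 downward or 0.0542%) at an adjusted p under 0.05 in limma, against 932 at an unadjusted p under 0.05. The 4 arrays of a group give a slope little precision, and the count was 11 to 131 with 1 array left out. Within 36-45 h no probe passed (0.00%; 492 at an unadjusted p under 0.05). The step that remained at 34.5 h after both lines were taken out passed for 359 probes (3.25%; 121 upward or 1.09%, 238 downward or 2.15%), against 1872 at an unadjusted p under 0.05. This count rested on the arrays beside the step, since it was 12 without the 33 h array and 1 without the 36 h array, and 765, 735, 130 and 131 without the 24, 27, 30 or 45 h array. For the called probes with a difference of 0.5 or more, the median step was 79.1% of the difference between the group means.

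The timing was described next in the genes that changed by 1 or more. On a scale where 0 is the mean of 24-33 h and 100 the mean of 36-45 h, the median of the 55 genes that rose was at -19.2, 7.87, 7.34 and 6.33% at 24, 27, 30 and 33 h. It was at 87.8% at 36 h and 99.1, 105 and 106% thereafter. The 85 genes that fell were at -17.6, 2.59, 7.30 and 5.61% up to 33 h, then at 92.3% at 36 h and at 96.2, 104 and 105%. Thus the 24 h array lay on the far side of its group in both directions, the arrays of 27 to 33 h were alike, and most of the distance was covered in 1 interval of 3 h. These genes were chosen for their difference between the same arrays, and that difference also sets the scale. The positions, and the absence of overlap between the groups in 55 of 55 and 85 of 85, are therefore descriptions and no test of the timing. The same holds where the scale is used below for members of a list that fell. The line over 24-33 h sloped upward in 46 of the 55 genes and passed in 1 (FBXO32). It sloped downward in 70 of the 85 and passed in 0, and the median drift of all genes was -0.01. The 24 h array enters these slopes, and the medians above did not move steadily from 27 to 33 h. The signs of the slopes therefore do not show that the change had begun. At 24-33 h against 12-21 h, 3 of the 55 were already called higher and 8 of the 85 lower.

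**Figure D2:**
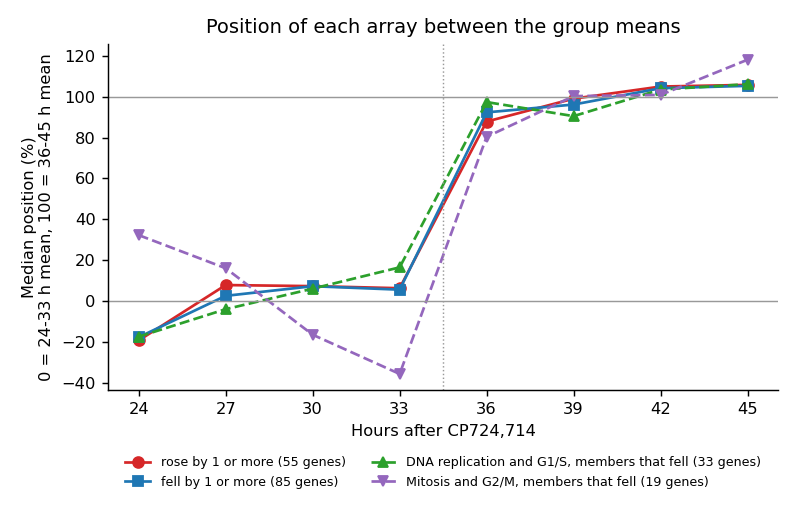
Points show the median position of each array in percent, where 0 is the mean of 24-33 h and 100 the mean of 36-45 h, against hours, for genes that rose (55) or fell (85) by 1 or more and for the members that fell of the DNA replication (33) and mitosis (19) lists. All sets cross between 33 and 36 h (dotted line), and the mitosis genes first move the other way, from 32.3% at 24 h to -35.6% at 33 h.

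Earlier in the time course many of the genes that fell had moved the other way. The comparison of 12-21 h with 3-9 h, which shares no array with the late comparison, called 3156 probes (28.5%; 1669 higher or 15.1%, 1487 lower or 13.4%; per gene 15.3% and 13.6%). Without the dim 9 h array this comparison called 4401. Of the 1976 probes that rose at 36-45 h, 522 (26.4%) had been lower at 12-21 h than at 3-9 h and 176 (8.91%) had been higher. Of the 1913 probes that fell, 710 (37.1%) had been higher and 174 (9.10%) lower. For the probes that fell this held with median scaling, where 43.4% had been higher and 2.96% lower, but for those that rose it turned, with 10.9% higher and 6.75% lower. The median of all probes in this earlier comparison was -0.02 after quantile normalization and 0.12 with median scaling, and with the latter 405 probes were lower and 2137 higher. From 12-21 h to 24-33 h, 161 probes passed (1.46%; 64 higher or 0.579%, 97 lower or 0.877%; 1899 at an unadjusted p under 0.05). Per gene 0.590% were higher and 0.857% lower. That comparison spans the difference in array background between 21 and 24 h and shares the 24-33 h arrays with the late one, so its values are only given beside the others.

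The largest rises, among genes detected on all 4 late arrays, were found in genes of diverse function. Values below are in the order 24, 27, 30 and 33 h and then 36, 39, 42 and 45 h, and differences are 36-45 h minus 24-33 h with 4 arrays in each group. CYP4B1, a cytochrome P450 that hydroxylates fatty acids and foreign compounds, measured 8.34, 8.56, 9.12 and 8.81 and then 10.42, 10.59, 10.64 and 10.78, a rise of 1.90 (SE 0.13, adjusted p = 3.16e-08) or 3.73-fold. It had been 7.06 to 8.89 from 0 to 21 h, so that the late arrays lay above all earlier ones. ATP6V1B1, a subunit of the proton pump that acidifies lysosomes and secretory compartments, measured 10.52, 11.04, 11.26 and 11.21 and then 12.54, 12.77, 12.97 and 12.73. It rose by 1.75 (SE 0.12, adjusted p = 5.34e-08), and a step beyond drift of 1.14 (adjusted p = 0.00386) passed. BMF, a BH3-only protein that promotes apoptosis when cells lose attachment or growth factor, measured 7.23, 8.11, 7.47 and 7.26 and then 8.94, 9.20, 9.28 and 9.24. Its rise was 1.65 (SE 0.15, adjusted p = 6.39e-07), and it had been 6.55 to 7.69 from 0 to 21 h. FBXO32, the substrate-binding subunit of a ubiquitin ligase and a well known FOXO target, measured 10.94, 10.98, 11.37 and 11.50 and then 12.65, 12.59, 12.77 and 12.79. FBXO32 also passed for drift before the step: it rose by 0.63 (adjusted p = 0.0218) over 24-33 h, its step of 0.97 (adjusted p = 0.00126) came on top, and a second probe rose by 1.39.

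ELF3, an ETS factor of epithelia, measured 10.16, 10.42, 10.38 and 10.62 and then 11.61, 11.86, 11.85 and 11.90, and rose by 1.41 (SE 0.09, adjusted p = 1.83e-08). Further genes among the 12 largest rises were CXCL8 (listed as IL8; 1.54), EPHB6, an Eph receptor without kinase activity (1.52), NTF3, a neurotrophin (1.50), GBP1, an interferon-induced GTPase (1.48), CRIP2, a LIM domain protein (1.41), PNPLA7, a lysophospholipase listed as C9orf111 (1.41), and IFIT2, an interferon-induced RNA-binding protein (1.39). MYBPC1, a myosin-binding protein, rose by 1.78 (SE 0.16, adjusted p = 3.71e-07) but was detected on 2 of the 4 late arrays and so was not ranked. Of the 12, the step beyond drift also passed for EPHB6, NTF3, CRIP2 and PNPLA7. For CXCL8, GBP1 and IFIT2 it measured 0.86 (adjusted p = 0.269), 1.23 (adjusted p = 0.0528) and 0.85 (adjusted p = 0.0857).

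**Figure D3:**
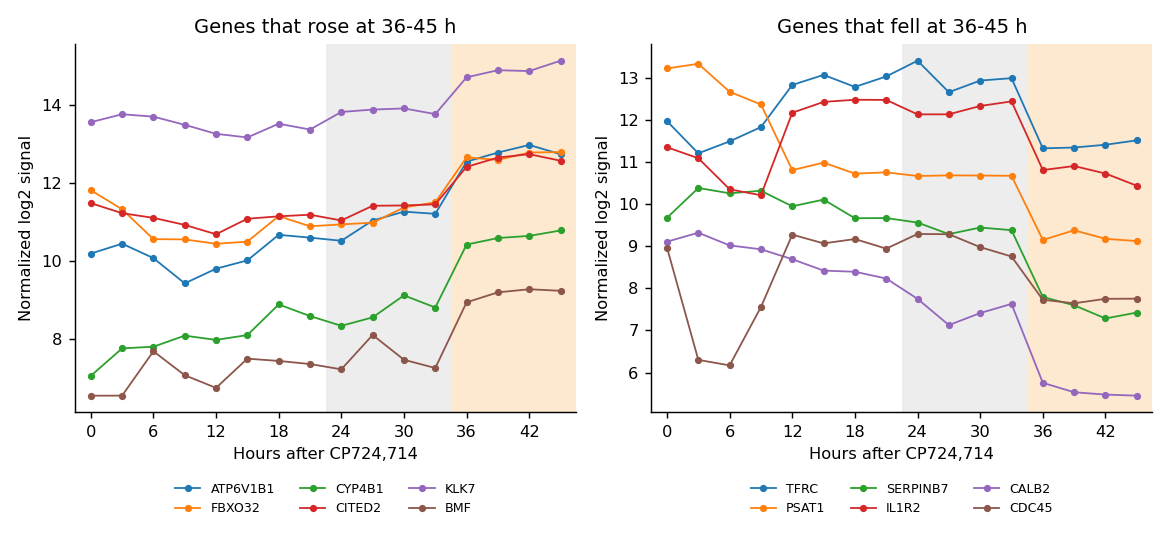
Points show the normalized log2 signal of each of the 16 arrays against hours after CP724,714 for 6 genes that rose (left) and 6 that fell (right) at 36-45 h, with 1 array per time point and no error bars; 24-33 h is shaded grey and 36-45 h orange. The step lies between 33 and 36 h in each gene, for example from 12.99 to 11.33 in TFRC, while PSAT1 had already dropped between 9 and 12 h.

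The largest falls included iron uptake, cytokine decoy and secreted genes. TFRC, the transferrin receptor that brings iron into cells, measured 13.41, 12.66, 12.94 and 12.99 and then 11.33, 11.35, 11.41 and 11.52, a difference of -1.60 (SE 0.11, adjusted p = 3.16e-08). It had been 11.21 to 11.83 at 3-9 h and 12.79 to 13.07 at 12-21 h, so that the late level lay within the range of 3-9 h. IL1R2, a decoy receptor for interleukin-1, measured 12.13, 12.14, 12.33 and 12.44 and then 10.81, 10.91, 10.73 and 10.44, and fell by 1.54 (SE 0.09, adjusted p = 1.2e-08). A second IL1R2 probe, detected on 10 of the 16 arrays, differed by -0.27 and did not pass. SERPINB7, a serine protease inhibitor of epithelia, measured 9.56, 9.29, 9.45 and 9.38 and then 7.80, 7.60, 7.28 and 7.42; its difference was -1.89 (SE 0.11, adjusted p = 9.51e-09), and the step of -1.53 (adjusted p = 0.00126) passed. CALB2, the calcium-binding protein calretinin, measured 7.75, 7.13, 7.41 and 7.63 and then 5.76, 5.53, 5.48 and 5.45. It was not detected on any of the 4 late arrays, so its fall was at least 2.76-fold. It had been 8.23 to 8.69 at 12-21 h, and 24-33 h lay -0.96 (adjusted p = 0.00349) from there.

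STEAP1, a membrane protein of a metalloreductase family, measured 9.99, 9.40, 9.25 and 9.30 and then 7.77, 7.61, 7.54 and 7.64, and differed by -1.84 (SE 0.13, adjusted p = 5.69e-08). STC1, a secreted glycoprotein hormone, differed by -1.60 (SE 0.24, adjusted p = 6.38e-05), and its arrays differed within 24-33 h: it measured 9.47, 8.37, 7.89 and 8.10 and then 7.03, 6.93, 6.92 and 6.57, the change over 24-33 h was -1.38 (adjusted p = 0.0506) and the step -0.40 (adjusted p = 0.58), and neither passed. CDC14B, a phosphatase, had an uneven base of 13.64, 11.45, 12.47 and 12.82 before 11.01, 11.00, 11.13 and 10.81, and a second CDC14B probe differed by -0.10 and did not pass. The other genes among the 12 largest falls were ZBED2, a zinc finger factor (-1.76), S100P, a calcium-binding protein (-1.63), KRT6B, a keratin of activated epithelium (-1.60), PTGS1, cyclooxygenase-1 (-1.55), and ANKRD22, an ankyrin repeat protein (-1.54). The step passed for ZBED2, S100P, PTGS1 and ANKRD22 and was -0.95 (adjusted p = 0.0852) for KRT6B, whose signal cannot be assigned with certainty among the near-identical KRT6A, KRT6B and KRT6C.

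Genes were then grouped in lists by function, with 1 probe per gene. Over all 10501 genes 18.3% rose and 17.4% fell, and the median difference was 0.01, against which the counts of each list can be read. The plot of calls by list shows that replication, glycolysis, serine synthesis and p53 target genes had the highest shares that fell, while interferon-induced, squamous, autophagy and lysosome genes had the highest shares that rose. In bulk RNA, fewer cells of a kind and less RNA per cell cannot be told apart.

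**Figure D4:**
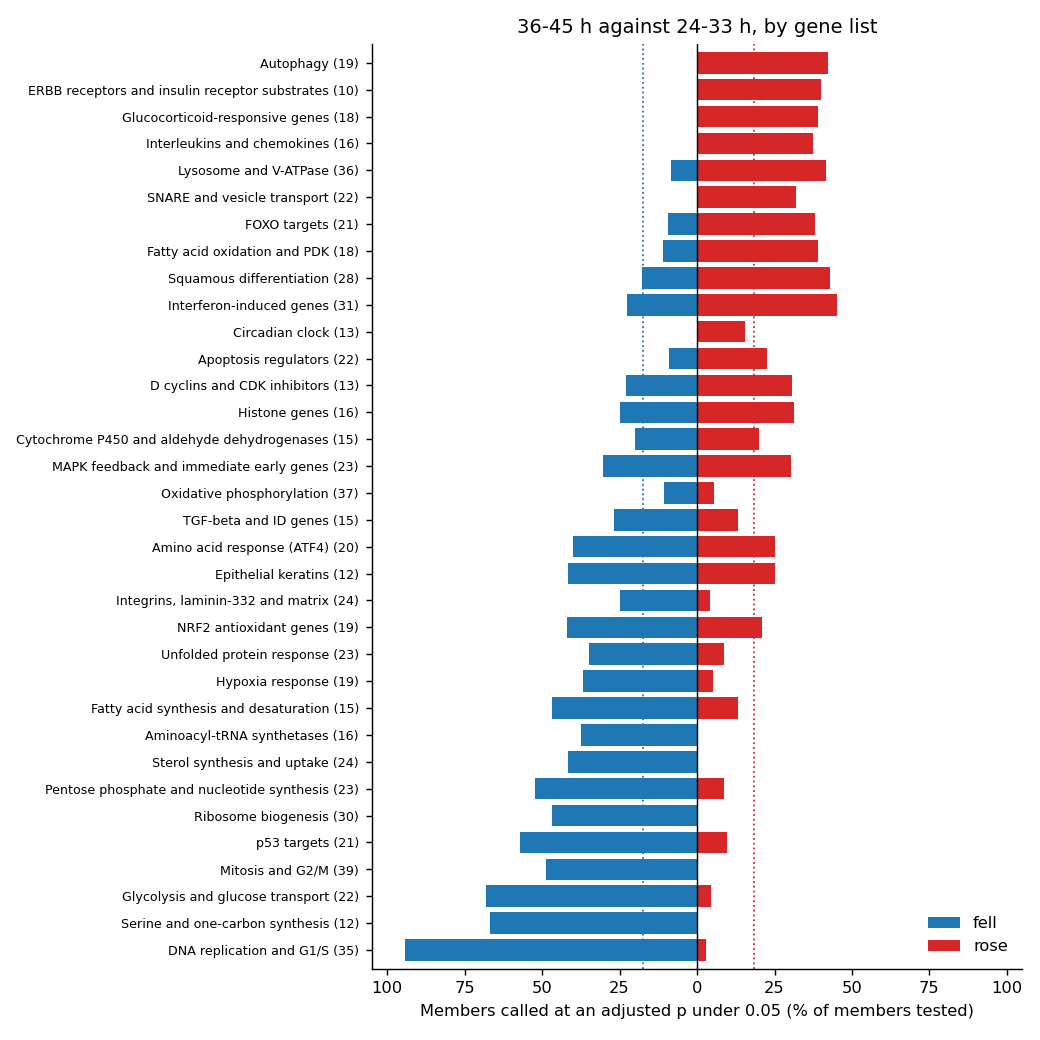
Bars show the percent of tested members of each gene list that fell (blue, left) or rose (red, right) at 36-45 h against 24-33 h at an adjusted p under 0.05, with the number of members tested in parentheses; dotted lines mark the shares over all genes (17.4% fell, 18.3% rose). DNA replication and G1/S has the longest bar, with 33 of 35 members lower.

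DNA replication fell as a near-complete set. Of 35 tested genes of replication and the G1/S transition, 33 fell, 1 rose and 1 did not pass, with a median of -0.74. GINS4 (listed as SLD5), a subunit of the GINS complex of the replicative helicase, measured 8.34, 8.37, 8.51 and 8.46 and then 6.98, 7.30, 6.97 and 6.70, and differed by -1.43 (SE 0.12, adjusted p = 2.09e-07). CDC45 (listed as CDC45L), the partner of MCM and GINS in the same helicase, measured 9.29, 9.29, 8.98 and 8.76 and then 7.73, 7.65, 7.75 and 7.76; its difference was -1.36 (SE 0.11, adjusted p = 2.27e-07). MCM10, which helps to start the helicase, differed by -1.16 (SE 0.11, adjusted p = 6.26e-07), with 9.04, 8.88, 8.60 and 8.79 before and 7.74, 7.83, 7.51 and 7.60 after. All 6 subunits of the MCM2-7 ring fell, by values from -0.51 (MCM5) to -0.77 (MCM2), and so did the sliding clamp PCNA (-0.74), its loader subunits RFC2 to RFC5 (-0.60 to -0.84), the flap nuclease FEN1 (-1.08), ligase LIG1 (-0.88), the phosphatase CDC25A (-1.04) and the factors E2F1 (-0.88) and E2F2 (-0.75). The exception was POLA1 (listed as POLA), the catalytic subunit of polymerase alpha, which rose by 0.30 (SE 0.11, adjusted p = 0.0367); this call was lost with median scaling (adjusted p = 0.161) and in other settings. Its accessory subunit POLA2 fell by 1.01 (SE 0.10, adjusted p = 8.63e-07).

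Before the step the list leaned downward. No member passed for drift within 24-33 h, where the median change was -0.28, and 1 member was lower at 24-33 h than at 12-21 h. In all, 11 of 35 passed for the step beyond drift (all downward, median -0.49, against 2.19% of all genes). Without the 33 h or the 36 h array 0 of 35 passed for the step. The 33 genes that fell were at a median of 16.5% of the way at 33 h and 97.4% at 36 h. At the start of the time course the same list had moved more: relative to 24-33 h its median was -0.35 in the untreated array, dropped to -1.67 and -1.51 in those of 3 and 6 h, and had returned to 0.20 by 12 h. Of the 35 members, 28 were higher at 12-21 h than at 3-9 h. At 36 to 45 h it was -0.68 to -0.79, below the untreated array but above the low of 3 and 6 h. RRM2, the ribonucleotide reductase subunit whose supply of deoxynucleotides is tied to S phase, followed the same course: it measured 6.66 to 7.59 at 3-9 h, 10.14, 9.23, 9.64 and 9.43 at 24-33 h and 8.09, 8.29, 8.24 and 8.17 at 36-45 h, and fell by 1.41 (SE 0.14, adjusted p = 1.2e-06).

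The genes that fell were looked up in a RefSeq promoter table (GRCh38.p14), and the 250 bases before the start were searched on both strands for short motifs. The E2F motif TTTNGCGC was held by 9 of the 27 fallen replication genes with a promoter in the table (33.3%), against 2.64% of 7950 tested genes and 1.54% of all 27305 promoters. The pentamer CCAAT, bound by NF-Y, was held by 15 of these 27 (55.6%, against 36.1% of tested genes and 33% of all promoters). It was not particular to fallen cell cycle genes. CCAAT was held by 5 of 6 fallen sterol genes, 6 of 8 fallen unfolded protein response genes and 4 of 5 risen histone genes. In other lists it was less common, with 2 of 14 fallen glycolysis genes and 1 of 8 risen autophagy genes. Other motifs and lists, with few promoters each, were searched in the same way. The forkhead motif was held by 0 of 7 risen FOXO targets (tested genes 2.08%) and the sterol motif SRE by 0 of 6 fallen sterol genes (0.855%). The ATF4 composite element was held by 0 of 5 risen and 1 of 7 fallen genes of the ATF4 program (1.46%). The antioxidant response element was held by 2 of 6 fallen NRF2 genes (12.5%). The 120 bases before the start are shown for 3 of the replication genes because they hold the E2F letters and fell. POLE2, a subunit of polymerase epsilon, fell by 0.99 (SE 0.10, adjusted p = 1.22e-06) and E2F1 by 0.88 (SE 0.12, adjusted p = 2.14e-05). Capitals mark the E2F match in each and CCAAT in E2F1. They lie at chr11:65261842-65261961 on the plus strand, chr14:49688215-49688334 on the minus strand and chr20:33686386-33686505 on the minus strand.
POLA2: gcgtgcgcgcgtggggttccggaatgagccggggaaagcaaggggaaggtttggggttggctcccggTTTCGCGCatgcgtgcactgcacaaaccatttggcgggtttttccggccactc
POLE2: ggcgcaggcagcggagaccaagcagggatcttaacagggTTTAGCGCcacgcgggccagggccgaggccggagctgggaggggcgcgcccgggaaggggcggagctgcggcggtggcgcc
E2F1: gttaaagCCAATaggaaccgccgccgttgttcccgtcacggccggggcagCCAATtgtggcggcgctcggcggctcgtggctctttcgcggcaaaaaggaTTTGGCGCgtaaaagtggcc
A match describes these letters only and does not show binding.

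In mitotic genes the levels before the step were not flat. Of 39 tested genes of mitosis and G2/M, 19 fell, 0 rose and 20 did not pass, with a median of -0.38 and all 39 below 0. From 24 to 33 h the list moved upward, with 21 of 39 members passing for upward drift (median 0.67 over 9 h, against 0.438% of all genes), and the step beyond drift then passed downward for 25 of 39 (median -0.69). Leaving out the 24 h array brought the members that fell to 35 and those that drifted to 2, and the step passed for 5 without the 33 h array and 0 without the 36 h array. CCNA2, cyclin A2, measured 10.65, 10.79, 11.04 and 11.24 and then 10.28, 10.16, 10.27 and 10.12; it rose by 0.61 (adjusted p = 0.0363) over 24-33 h, and the step was -1.05 (adjusted p = 0.00126). AURKB, the kinase of the chromosomal passenger complex, measured 11.44, 11.71, 11.83 and 11.81 and then 11.06, 10.98, 10.86 and 10.78, and fell by 0.78 (SE 0.08, adjusted p = 3.09e-06). MAD2L1, a spindle checkpoint protein, was flat before the step at 11.21, 11.18, 11.23 and 11.23, and then measured 10.47, 10.31, 10.26 and 10.26, a difference of -0.89 (SE 0.06, adjusted p = 6.76e-08).

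Relative to its 24-33 h mean, the median mitosis gene was -0.94 at 9 h and 0.60 at 21 h, dropped to -0.36 at 24 h, climbed to 0.34 at 33 h and was -0.24, -0.40, -0.38 and -0.58 at 36 to 45 h. Thus the 36, 39 and 42 h arrays lay close to the 24 h array in this median, and the drop at 36 h followed an earlier one at 24 h. The array at 24 h is also the first of those with the higher background. The cell cycle homology motif TTTGAA (CHR), bound by repressor complexes of mitotic genes, was held by 8 of the 14 fallen mitosis genes with a promoter (57.1%). Its share was 8.64% of tested genes and 13.6% of all promoters. CCAAT was held by 11 of 14 (78.6%), a share also reached in lists outside the cell cycle, as given above. Shown are the 120 bases before the start of KIF11, a motor of the spindle that fell by 0.69 (SE 0.10, adjusted p = 5.49e-05), and PRC1, a protein of the central spindle that fell by 0.54 (SE 0.09, adjusted p = 0.000195), because both hold the CHR and CCAAT letters close to the start (capitals). They lie at chr10:92593010-92593129 on the plus strand and chr15:90994536-90994655 on the minus strand, and TTCAAA and ATTGG in KIF11 are the same motifs on the other strand.
KIF11: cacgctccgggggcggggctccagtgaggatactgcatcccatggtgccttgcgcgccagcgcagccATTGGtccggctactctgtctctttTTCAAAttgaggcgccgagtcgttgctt
PRC1: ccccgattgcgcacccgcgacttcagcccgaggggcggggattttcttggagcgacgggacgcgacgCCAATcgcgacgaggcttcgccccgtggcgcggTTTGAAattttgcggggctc

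Regulators of the G1 checkpoint moved in both directions. Of 13 tested D cyclins, their kinases, RB family members and CDK inhibitors, 4 rose and 3 fell (5 without the 27 h array). CDKN2C (p18) rose by 0.67 (SE 0.14, adjusted p = 0.0011), CDKN1C (p57) by 0.54 and CDKN1B (p27), an AKT and FOXO regulated inhibitor, by 0.36 (SE 0.08, adjusted p = 0.00148). CDKN1A (p21), the inhibitor induced by p53, went the other way with 12.91, 12.78, 12.77 and 12.89 before and 12.10, 12.11, 11.89 and 12.03 after, a difference of -0.81 (SE 0.06, adjusted p = 9.78e-08). Other p53 targets fell with it: of 21 tested, 12 fell and 2 rose (1 without the 33, 39 or 42 h array), with a median of -0.35. DDB2, a DNA damage sensor, differed by -0.82 (SE 0.13, adjusted p = 0.000108), and FDXR, a mitochondrial reductase, by -0.74 (SE 0.08, adjusted p = 1.81e-06); the 12 also held GDF15 (-0.58), TIGAR (-0.57), BAX (-0.52) and RRM2B (-0.51). None of these lists had members that passed for drift within 24-33 h.

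Of 16 tested histone genes 5 rose and 4 fell. H2BC5 (listed as HIST1H2BD), a histone H2B gene, measured 9.88, 10.21, 10.33 and 10.35 and then 11.28, 11.40, 11.57 and 11.64, and rose by 1.28 (SE 0.10, adjusted p = 9.78e-08). H2BC21 (1.13), H2AC6 (1.11), the histone H4 gene H4C14 (0.64) and the linker histone H1-2 (0.57) rose as well. Another H4 gene, H4C3 (listed as HIST1H4C), measured 14.61, 14.87, 14.66 and 14.87 and then 13.86, 13.92, 13.98 and 13.74, and differed by -0.88 (SE 0.07, adjusted p = 9.62e-08). The histone variant genes H2AZ1 (-0.58) and H2AX (-0.54) also fell.

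Serine and one-carbon synthesis leaned downward as a set. Of 12 tested genes 8 fell, 0 rose and all 12 differences were below 0, with a median of -0.46. PSAT1, the aminotransferase of the second step from glycolysis to serine, was level at 10.67, 10.68, 10.68 and 10.67 and then measured 9.15, 9.38, 9.18 and 9.12, a difference of -1.47 (SE 0.07, adjusted p = 3.45e-09). Its level had been 13.22 and 13.34 at 0 and 3 h and 10.73 to 10.99 at 12-21 h, so that the fall at 36 h was its second. PHGDH, the enzyme of the first step, measured 11.76, 11.94, 11.74 and 11.65 and then 10.97, 10.83, 10.78 and 10.68, and fell by 0.96 (SE 0.07, adjusted p = 9.78e-08). It had been 13.05 to 13.48 from 0 to 9 h and 11.99 to 12.30 at 12-21 h, and 24-33 h lay -0.36 (adjusted p = 0.0386) from 12-21 h, across the change in array background. PSPH, the third enzyme of the path, fell by 0.54, and so did the folate enzymes MTHFD1L (-0.48) and MTHFD1 (-0.41) and the transsulfuration enzyme CBS (-0.65). TYMS, thymidylate synthase, which uses one-carbon units for DNA synthesis, measured 11.83, 11.93, 11.79 and 11.89 and then 10.86, 10.83, 10.69 and 10.72, and differed by -1.08 (SE 0.06, adjusted p = 8.49e-09). The median position of the 8 genes was 1.20% at 33 h and 99.1% at 36 h. The step beyond drift passed for 3 of the 12, and for 1 without the 33 h array and 0 without the 36 h array.

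The broader amino acid response did not move one way. Of 20 tested genes of the ATF4 program, 5 rose (3 without the 30 h array) and 8 fell. TRIB3, a pseudokinase induced by ATF4, was level at 11.37, 11.30, 11.40 and 11.31 and then measured 10.66, 10.44, 10.62 and 10.61, a difference of -0.76 (SE 0.06, adjusted p = 2.33e-07). PYCR1 (-0.55), a proline synthesis enzyme whose second probe differed by 0.01, the transporter SLC7A5 (-0.51) and asparagine synthetase ASNS (-0.45) fell too. ATF5, a related factor, rose by 0.43 (SE 0.07, adjusted p = 0.000121), and ATF4 itself (0.40) and DDIT3 (0.42) rose as well. Of 16 aminoacyl-tRNA synthetases 6 fell and 0 rose, among them VARS1 (-0.62) and IARS1 (-0.58). Of 23 genes of the unfolded protein response 8 fell and 2 rose, with SDF2L1 (-0.47) and CALR (-0.44) on one side and PPP1R15A (0.52) on the other.

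Genes of most steps of glycolysis fell. Of 22 tested genes 15 fell and 1 rose, with a median of -0.39. ALDOC, an aldolase, measured 10.44, 10.07, 10.26 and 10.14 and then 9.08, 9.25, 9.22 and 9.07, a difference of -1.07 (SE 0.09, adjusted p = 1.6e-07), and 24-33 h lay -0.61 (adjusted p = 0.0034) from 12-21 h. HK2 (-0.58), GPI (-0.37), TPI1 (-0.49), GAPDH (-0.41), PGK1 (-0.61), PGAM1 (-0.63), ENO1 (-0.50) and LDHA (-0.53) fell, enzymes that act between hexokinase and lactate dehydrogenase. The glucose transporter SLC2A3 fell by 0.72 (SE 0.16, adjusted p = 0.00261); it was not detected on any late array, so its fall was at least 1.45-fold, and its step was -0.04 (adjusted p = 0.969). PFKFB3, which makes the activator of phosphofructokinase, was called higher by 0.32 (SE 0.11, adjusted p = 0.0283), a call lost with median scaling (adjusted p = 0.0837) and without the 33, 42 or 45 h array. The 15 glycolysis genes that fell were at a median of 10.2% of the way at 33 h and 95.9% at 36 h. Their 24-33 h arrays were uneven (-25.4% at 24 h, 26.0% at 27 h). Of the 22 genes, 1 passed for a downward step beyond drift and 0 for drift within 24-33 h. The median step of the list was -0.20 and its median drift over 24-33 h -0.18. Without the 24 h array 8 passed for a downward step and the median drift was 0.14. Without the 33 h or the 36 h array 0 passed for the step.

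Of 23 genes of the pentose phosphate path and nucleotide synthesis 12 fell and 2 rose, with a median of -0.28. Besides RRM2 these were DTYMK, thymidylate kinase (-0.78), PRPS1, which makes phosphoribosyl pyrophosphate (-0.73), CTPS1 (-0.50), CAD (-0.44) and GART (-0.44). Of 19 hypoxia response genes 7 fell and 1 rose (3 rose without the 24 h array). The median step was 0.06 and the median drift over 24-33 h -0.40, with 1 member passing for downward drift and 0 for the step. This drift rested on the 24 h array. Without that array the median drift was -0.03 and the median step -0.11, with 0 members passing for drift and 1 for a downward step. Without the 27 h array 6 members passed for downward drift. CA9, carbonic anhydrase 9, measured 7.62, 6.86, 6.94 and 6.96 and then 6.30, 6.22, 5.84 and 5.92; its step was -0.33 (adjusted p = 0.601), and 24-33 h lay -1.04 (adjusted p = 0.00334) from 12-21 h.

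Sterol synthesis had declined long before. Relative to 24-33 h its median member stood at 1.16 in the untreated array and had come down to 0.32 by 9 h and 0.01 by 12 h. Of 24 members, 16 were lower at 12-21 h than at 3-9 h. With median scaling of that comparison 8 were. At 36-45 h 10 of 24 fell (6 without the 36 h array) and 0 rose, with a median of -0.14. ACAT2, which makes acetoacetyl-CoA, measured 12.59, 12.77, 12.65 and 12.68 and then 11.91, 11.99, 12.01 and 11.91, a difference of -0.72 (SE 0.06, adjusted p = 9.78e-08). SQLE, squalene epoxidase, differed by -0.60 (SE 0.09, adjusted p = 7.35e-05) and HMGCS1 by -0.52. Of 15 fatty acid synthesis genes 7 fell and 2 rose. The desaturase FADS1 fell by 0.92 (SE 0.10, adjusted p = 2.33e-06), while FADS3 of the same gene cluster rose by 0.88 (SE 0.08, adjusted p = 3.65e-07). In the list of fatty acid oxidation and pyruvate dehydrogenase kinases 7 of 18 rose and 2 fell, and 3 rose with median scaling and 4 without the 42 h array. PDK4, which restrains glucose oxidation, measured 7.93, 8.84, 8.71 and 8.85 and then 8.85, 9.67, 9.70 and 9.37; its difference was 0.82 (SE 0.19, adjusted p = 0.00325), which missed the threshold with robust eBayes (adjusted p = 0.0563), and its step was -0.03 (adjusted p = 0.974). PDK3 fell by 0.82. In oxidative phosphorylation 2 of 37 genes rose and 4 fell, with a median of -0.02.

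Genes of ribosome production leaned downward. Of 30 tested, 14 fell and 0 rose, with a median of -0.25. LYAR, a nucleolar protein of rRNA production, measured 10.84, 10.69, 10.78 and 10.91 and then 10.08, 9.95, 9.91 and 10.01, and differed by -0.82 (SE 0.07, adjusted p = 2.42e-07). NOP56 (listed as NOL5A), a core protein of the box C/D particles that methylate rRNA, differed by -0.75 (SE 0.07, adjusted p = 9.95e-07). NOLC1 (-0.66), BOP1 (-0.48), DKC1 (-0.41) and nucleolin NCL (-0.36) fell as well. No member passed for drift within 24-33 h, and the list had 3 members higher and 0 lower at 12-21 h against 3-9 h.

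**Figure D5:**
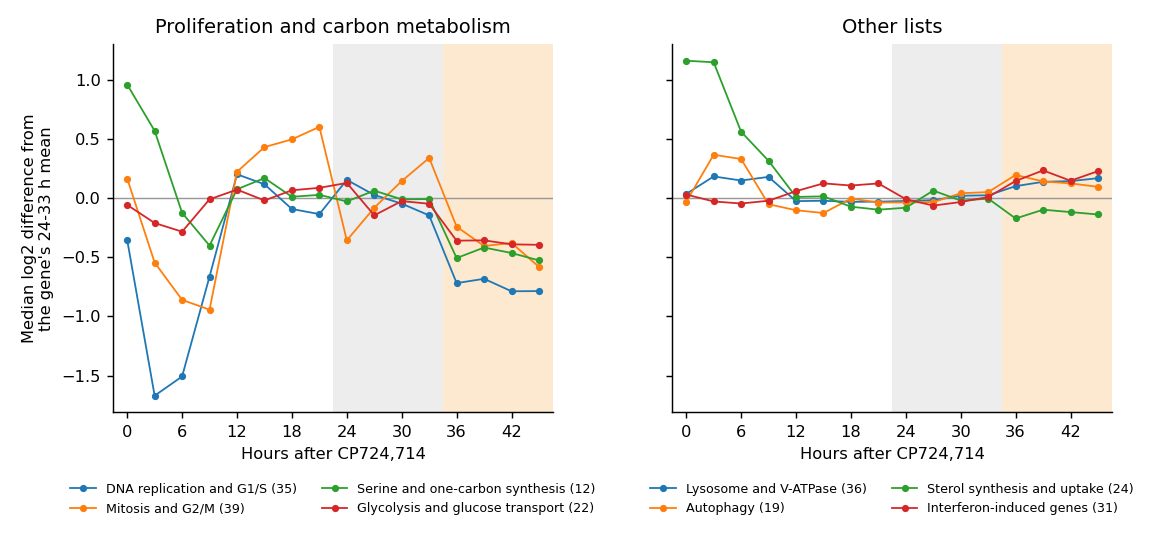
Lines show, for each array, the median over the tested members of a list of the log2 difference from the gene's own 24-33 h mean, against hours after CP724,714, with 24-33 h shaded grey and 36-45 h orange and the number of members in parentheses. Replication, serine synthesis and glycolysis (left) step down at 36 h to -0.72, -0.51 and -0.36, mitosis falls at both 24 and 36 h, and sterol synthesis (right) had declined by 12 h.

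Receptors and signaling genes rose in part. Of 10 tested ERBB receptors, insulin receptor substrates and their adaptors, 4 rose and 0 fell, with a median of 0.27. ERBB3, the partner of HER2 that couples it to PI3K, measured 10.45, 11.04, 10.90 and 10.87 and then 11.40, 11.56, 11.57 and 11.44. It rose by 0.68 (SE 0.10, adjusted p = 4.44e-05), a second probe rose by 0.45, and the step was 0.43 (adjusted p = 0.248). ERBB3 had been 9.24 at 0 h and 11.46 at 6 h, so that the late arrays were near the highest earlier level. EGFR, the receptor of the EGF in the medium, did not pass with its brightest probe (-0.13, adjusted p = 0.316), while a dimmer probe fell by 0.75 (adjusted p = 0.000164) and the third differed by -0.17 (adjusted p = 0.0883). IRS1, the docking protein of the insulin and IGF receptors, rose by 0.70 (SE 0.13, adjusted p = 0.000674), and GRB10, an adaptor of the same receptors, by 0.47. Of 23 MAPK feedback and immediate early genes 7 rose and 7 fell. EGR1, an immediate early factor, rose by 0.72 (SE 0.14, adjusted p = 0.000569), with JUN (0.54) and DUSP1 (0.50), whereas FOSL1, a factor that needs sustained ERK activity, differed by -0.75 (SE 0.09, adjusted p = 7.22e-06), with ETV4 (-0.66), ETV5 (-0.51) and PHLDA1 (-0.63).

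Of 21 FOXO targets 8 rose and 2 fell, with a median of 0.15. GADD45B, a stress-induced regulator of growth arrest, measured 10.24, 10.57, 10.44 and 10.49 and then 11.74, 11.67, 11.65 and 11.72, a rise of 1.26 (SE 0.07, adjusted p = 8.12e-09). CITED2, a transcriptional cofactor, measured 11.04, 11.41, 11.42 and 11.45 and then 12.41, 12.65, 12.73 and 12.56, and rose by 1.26 (SE 0.09, adjusted p = 4.31e-08). In both genes the groups did not overlap. BCL6, a transcriptional repressor, rose by 1.03 (SE 0.13, adjusted p = 1.2e-05), followed by FOXO4 (0.72), TSC22D3 (0.47) and KLF9 (0.46). The step beyond drift passed for 3 of the 21, and for 0 without the 33 h or the 36 h array. Glucocorticoid-responsive genes, whose list shares TSC22D3 and KLF9, leaned the same way: 7 of 18 rose and 0 fell, led by ZBTB16, a zinc finger factor, with 0.75 (SE 0.07, adjusted p = 1.05e-06), CEBPD (0.66) and GLUL (0.60), whose second probe differed by 0.20 and did not pass. Hydrocortisone was part of the medium throughout.

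Lysosome and autophagy genes rose by small amounts. Of 36 lysosome and V-ATPase genes 15 rose and 3 fell, with a median of 0.15. ATP6V1B1 stood far above the next, LAMP2 (0.46, with a second probe at 0.02 that did not pass) and NEU1 (0.41), and the cathepsins CTSH (0.33) and CTSB (0.27). With median scaling 6 rose and 4 fell. Of 19 autophagy genes 8 rose and 0 fell, and 6 rose and 2 fell with median scaling. GABARAPL1, a protein of the autophagosome membrane, measured 11.15, 11.56, 11.61 and 11.67 and then 12.25, 12.45, 12.41 and 12.53, and rose by 0.91 (SE 0.09, adjusted p = 1.59e-06). SQSTM1 (p62), a cargo receptor, rose by 0.48 (SE 0.08, adjusted p = 0.000278), to 10.49, 10.67, 10.87 and 10.61, and had been higher in the first arrays, at 12.97 and 13.45 at 0 and 3 h. At 12-21 h against 3-9 h, 16 lysosome genes had been lower and 4 higher, and 7 autophagy genes lower and 1 higher. With median scaling these were 1 lower and 4 higher, and 2 lower and 1 higher.

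Of 22 SNARE and vesicle transport genes 7 rose and 0 fell, and 2 rose and 1 fell with median scaling. Without the 30 h or the 45 h array 4 and 3 rose. VAMP5, a vesicle SNARE of the plasma membrane, measured 8.41, 8.82, 8.59 and 8.71 and then 9.57, 9.49, 9.51 and 9.65, a rise of 0.92 (SE 0.09, adjusted p = 1.22e-06). VAMP8, a vesicle SNARE of endosomes and secretory granules that the study followed, measured 13.95, 14.07, 13.97 and 14.01 and then 14.12, 14.19, 14.16 and 14.29. Its difference of 0.19 (SE 0.05, adjusted p = 0.00814) was lost with median scaling (adjusted p = 0.115) and without a variance trend (adjusted p = 0.0571). Most of the change in VAMP8 had come before, from 13.14 and 12.92 at 0 and 3 h to 13.98 to 14.16 at 12-21 h.

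Interferon-induced genes divided. Of 31 tested, 14 rose and 7 fell, with a median of 0.20, and with median scaling 9 rose and 7 fell. Those that rose were led by GBP1, which measured 6.74, 6.14, 5.89 and 6.59 and then 7.60, 7.68, 7.80 and 8.21, and by IFIT2. The class I antigen HLA-B rose by 0.83 (SE 0.10, adjusted p = 1.27e-05), with B2M (0.30) and the factors IRF7 (0.57), STAT2 (0.42) and IRF9 (0.35). ISG15 (listed as G1P2), a ubiquitin-like protein, fell from 8.17, 7.72, 7.60 and 7.76 to 7.13, 7.05, 7.14 and 7.43, a difference of -0.62 (SE 0.13, adjusted p = 0.00115). IFI44 (-0.49), OAS3 (-0.41), IFI6 (-0.40) and TAP2 (-0.45, with a second probe at -0.25 that did not pass) fell with it. No member passed for the step beyond drift in either direction with all 8 arrays. Without the 24 h array 3 passed upward and 1 downward, and without the 27 h array 5 and 1. The letters TTCNNTTTC of the interferon-stimulated response element were held by 4 of 9 genes that rose and 6 of 6 that fell, counting genes with a promoter in the table, against 5.27% of tested genes and 7.06% of all promoters. ISG15 and IFI44 are shown because they fell while other holders of these letters rose. The stretches lie at chr1:1013377-1013496 and chr1:78649669-78649788, both on the plus strand, and capitals mark the matches, of which ISG15 has 3 that overlap each other on the other strand.
ISG15: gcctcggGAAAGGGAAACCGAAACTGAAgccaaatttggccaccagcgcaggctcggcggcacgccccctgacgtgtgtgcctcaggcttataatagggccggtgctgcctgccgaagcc
IFI44: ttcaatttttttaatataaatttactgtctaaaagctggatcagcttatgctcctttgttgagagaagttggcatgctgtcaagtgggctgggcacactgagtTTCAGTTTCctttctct

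Of 16 interleukins, chemokines and related genes 6 rose and 0 fell, with a median of 0.22. CXCL8, which attracts neutrophils, measured 7.82, 7.08, 7.50 and 8.35 and then 9.23, 9.00, 8.97 and 9.70, below the 10.51 of the untreated array. CCL28 (0.64), CXCL16 (0.50), CXCL1 (0.47) and IL18 (0.44) rose as well. Apoptosis regulators other than BMF included HRK, another BH3-only protein, which rose by 1.13 (SE 0.10, adjusted p = 2.32e-07) from 8.26, 8.26, 8.25 and 8.43 to 9.29, 9.56, 9.27 and 9.59, and the protective MCL1 (0.41). BCL2, the founding protective member, fell by 0.64 (SE 0.14, adjusted p = 0.00153). In all, 5 of 22 apoptosis regulators rose and 2 fell.

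Squamous and keratin genes moved in both directions. Of 28 genes of squamous differentiation 12 rose and 5 fell, with a median of 0.00. The step beyond drift passed upward for 6 and downward for 3, and for 0 without the 33 h or the 36 h array. No member passed for drift within 24-33 h. At 24-33 h against 12-21 h, across the change in array background, 3 members were higher and 3 lower. At 12-21 h against 3-9 h 12 were lower and 4 higher, and with median scaling 4 lower and 6 higher. Kallikrein proteases rose: KLK6 by 1.23 (SE 0.10, adjusted p = 1.5e-07), KLK7 by 1.05 (SE 0.07, adjusted p = 3.06e-08), KLK8 by 1.06 (SE 0.10, adjusted p = 5.61e-07) and KLK5 by 0.62. So did the genes of desmosomes and the cornified envelope TGM1 (0.91), PPL (0.71), DSP (0.48) and EVPL (0.28). KLK7 measured 13.81, 13.87, 13.90 and 13.76 and then 14.70, 14.88, 14.86 and 15.12. The falling side held S100P, SPRR1B and the calprotectin pair: S100A8 measured 10.68, 10.51, 10.48 and 10.68 and then 9.44, 9.26, 8.60 and 9.16, a difference of -1.47 (SE 0.13, adjusted p = 3.65e-07), and S100A9 differed by -1.15 (SE 0.14, adjusted p = 8.95e-06). Of 12 keratins 3 rose and 5 fell. Within 24-33 h 1 keratin passed for downward drift (0 without the 24 h array). At 24-33 h against 12-21 h 3 keratins were higher and 0 lower. KRT17 measured 14.62, 14.08, 14.12 and 14.37 and then 15.27, 15.21, 15.19 and 15.42, and rose by 0.98 (SE 0.09, adjusted p = 6.26e-07). Its 24-33 h mean lay 0.73 (adjusted p = 0.00232) from 12-21 h. KRT19, a keratin of simple epithelium, rose by 1.19 (SE 0.12, adjusted p = 1.93e-06), while KRT6A (-0.67), KRT6C (-0.51), KRT5 (-0.27) and KRT18 (-0.17) fell.

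Of 24 integrins, laminin-332 and matrix genes 6 fell and 1 rose. The median drift of the list over 24-33 h was -0.21 and its median step -0.03, with 1 member passing downward for each. Without the 24 h array these medians were -0.04 and -0.11, with 0 members passing for drift and 4 for a downward step. Without the 27 h array 4 members passed for downward drift. PLAU, the urokinase plasminogen activator, measured 10.11, 9.12, 9.42 and 9.19 and then 8.02, 7.66, 8.17 and 7.90, and fell by 1.53 (SE 0.17, adjusted p = 3.63e-06). SERPINE2, an inhibitor of it, measured 13.59, 13.24, 13.29 and 13.15 and then 12.03, 12.11, 12.05 and 11.72; its difference was -1.34 (SE 0.09, adjusted p = 3.16e-08). TNC, tenascin C, differed by -1.10 (SE 0.13, adjusted p = 6.87e-06), and the laminin-332 chain LAMA3 (-0.59) fell as well. Of 15 TGF-beta and ID genes 2 rose and 4 fell, with INHBB at 0.71 and TGFBI at -0.71. Of 19 NRF2 antioxidant genes 8 fell and 4 rose (2 without the 30 h or the 42 h array), with AKR1B10 at -0.72 and TXNRD1 at 0.50. Of 15 cytochrome P450 and aldehyde dehydrogenase genes 3 rose, CYP4B1 among them, and 3 fell. Of 13 clock genes 2 rose and 0 fell between the group means. With 1 array left out, 2 fell without the 24 h array and 1 without the 42 or 45 h array. Only 1 rose without the 30, 33, 39 or 42 h array. The step beyond drift passed downward for 3 of the 13 and upward for 0, against 2.19% of all genes downward. It passed downward for 1 without the 30, 33 or 36 h array. Without the 24 or 27 h array 2 passed upward as well. Within 24-33 h 1 member passed for upward drift.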

How the data were processed

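Expression was measured on Illumina Ref-8 v2 beadchips, 1 array for each of 16 time points. The authors deposited a probe intensity and a detection p-value per array, neither log-transformed nor normalized between arrays; the software that exported them is not given in the sources used here. Of 20589 probes, 15331 matched a current gene symbol and 3576 a synonym. Intensities were background-corrected by normexp with the moments of the negative controls inferred from the detection p-values (offset 16), quantile normalized over 16 arrays, set to log2 and tested with lmFit and eBayes (trend) in limma 3.58.1 under R 4.3.3, with Benjamini-Hochberg adjustment over 11061 probes. The 1504 probes whose detection p-value was no whole rank among the controls were left out of the background estimate, and both this choice and its alternatives were made after seeing the data. Differences were fitted on group means. The step and the drifts came from a fit with a line in hours for each group. Each gene list used 1 probe per gene, that with the highest mean over the 8 arrays. The members and lists were chosen with earlier results of these data known. Genes named were the 12 largest rises and falls without overlap, up to 3 members per direction and list with full values, other members by value only, and VAMP8, PHGDH and ERBB2. The test was checked on simulated data with independent noise per probe and array. That noise holds no shift shared across the probes of an array or culture, so the check does not cover such shifts. P-values measure only the spread among these arrays, whose number limits the precision, and the offset pulls differences of dim probes toward 0.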

Additional observations from a re-analysis of the deposited data

Results flagged for a closer look

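In 81 named genes, 13 of 162 sets of 4 arrays held 1 array far from the other 3, and chance gives about 1 in 20. Of the 13, 9 lay in 24-33 h and 6 were the 24 h array. At 24 h, SLC2A3 measured 7.14 (other arrays of its group 6.30 to 6.44), CA9 7.62 (6.86 to 6.96), SQLE 9.14 (8.86 to 8.91), PDK4 7.93 (8.71 to 8.85), CITED2 11.04 (11.41 to 11.45) and BCL6 10.49 (11.17 to 11.21). At 33 h, PTGS1 measured 7.11 (7.53 to 7.61), S100A9 8.60 (8.03 to 8.06) and HRK 8.43 (8.25 to 8.26). Among the late arrays, ELF3 measured 11.61 at 36 h (11.85 to 11.90), ZBTB16 10.76 at 36 h (10.88 to 10.90), EGR1 12.66 at 39 h (12.30 to 12.34) and SLC2A3 5.59 at 45 h (5.89 to 5.94).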

How the results depend on the processing

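No paired analysis was possible because no 2 arrays share a time point, culture or replicate number given by the labels. The difference between 36-45 h and 24-33 h kept its direction in every named gene under every alternative that tested it (155 of 167 genes when detection on all 8 arrays was required). These genes were named mainly for this difference between the same arrays, so the kept direction is a description and no test. The count of 3889 probes was 3308 to 3775 with 1 array left out (1643 to 1921 higher, 1664 to 1854 lower). With median scaling 1245 were higher and 2435 lower, and 18 of 68 list counts moved by over 1.5 times. With all 16 arrays in 1 fit 2145 were called (1050 higher, 1095 lower), and 31 of 68 list counts moved. Of 167 named genes, 31 lost their call in that fit (IRS1 with an adjusted p of 0.0906, TRIB3 0.135, SQSTM1 0.176, HMGCS1 0.326), and 7 with median scaling. Differences of 1 or more numbered 150 here, 62 with normexp from the signals alone (offset 50), 51 with the background from all probes and 35 without background correction. The step beyond drift was called for 1 to 765 probes with 1 array left out (0 to 354 higher, 1 to 420 lower), 222 with 1 common slope (137 lower), 71 without a variance trend (21 higher, 50 lower) and 72 higher with median scaling. Drift within 24-33 h was called for 11 to 131 probes with 1 array left out (9 to 93 higher, 1 to 38 lower), 6 without a trend (6 higher, 0 lower), and 16 lower with the background from all probes. The count within 36-45 h stayed at 0. For 24-33 h against 12-21 h the count was 40 to 163 with 1 array left out (11 to 73 higher, 29 to 104 lower) and 17 without a trend (4 higher, 13 lower). For 12-21 h against 3-9 h it was 1849 to 4401 (1057 to 2209 higher, 792 to 2192 lower), and with median scaling 405 were lower. Beyond these values the cause was not tested.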
